A study of Mus musculus with 2 samples.

Results

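The TRIM proteins are a large family of ubiquitin ligases, and their genes were described here in mouse macrophages exposed to an antibody against CD40 or to IgG. Members were taken by symbol alone, as every gene of the deposited expression table whose symbol starts with Trim and a digit. This gave 68 genes of 34714 in the table, and 0 symbols were left out as pseudogenes. A TRIM protein carries a tripartite motif of a RING finger, B-boxes and a coiled coil. The RING finger recruits an E2 enzyme that hands on ubiquitin, the coiled coil pairs the proteins, and a variable C-terminal domain, most often an SPRY domain, selects the target. In macrophages the family is known for restriction of viruses, for tuning the signals of RNA and DNA sensors and of the kinase TAK1, and for induction of many members by type I interferon. A few members lack the RING finger, so that not every gene of the family encodes a ligase of that type.

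The 2 libraries came from bone marrow-derived macrophages of C57BL/6 mice, which were grown from marrow in macrophage colony-stimulating factor at 20 ng/mL. One culture received the anti-mouse CD40 monoclonal antibody FGK45 (also written FGK4.5) for 24 h, and the other received IgG as its control for the same 24 h. CD40 sits on antigen-presenting cells and belongs to the receptor family of tumour necrosis factor, and the agonist antibody FGK45 takes the place of its ligand. The series title sets the comparison in chronic rejection of cardiac transplants. The labels give neither the number of animals behind a culture nor their age, nor whether the IgG was matched to the isotype of FGK45.

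With 1 library in each group, none of the differences below could be checked against replicates, no test was run, and genes are called only higher or lower with anti-CD40. Levels are FPKM, in which fragment counts are divided by transcript length and by library depth, so that genes can be compared per length. A step that recurs in the values, at 5 of 216 genes of a single exon with anti-CD40 and 4 of 185 with IgG, put the anti-CD40 library at about 1.10 times the depth of the IgG library, with about 20.5 and 18.6 fragments per FPKM and kilobase. A ratio is given with a 95% interval (exact, conditional binomial) from such approximate numbers of fragments, which holds counting error alone and not the spread between cultures. All 8 macrophage markers, among them Csf1r, Adgre1 and Lyz2, were present, each at 3.83 FPKM or more. Of markers of other cell types, Cd4 reached 3.94 FPKM with anti-CD40, against 3.04 with IgG, S100a8 1.82 and 1.11, Syp 2.86 and 3.31, and Hba-a1 1.18 and 2.91, while the defining markers Cd3e and Ly6g both stayed below 1 FPKM. Their part in the results was not tested.

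Most of the expressed family lay close together in the 2 libraries. Of the 68 Trim genes, 32 (47.1%) reached 1 FPKM in at least 1 library, against 27.6% of all genes, and these 32 are the counted members below. The difference of a gene is given as the log2 ratio of (FPKM + 1), anti-CD40 over IgG, whose pseudocount of 1 understates the difference of low genes. The median log2 ratio was 0.07 over the 32 members and 0.12 over all 9591 counted genes. The members ranged from -0.40 (Trim5) to 0.94 (Trim17), and their quartiles were -0.12 and 0.17, against -0.06 and 0.27 for all counted genes. With anti-CD40, 20 of the 32 (62.5%) were higher and 12 were lower, where 67.8% of all counted genes were higher and 32.2% lower. Relative to the median of all counted genes, 13 members lay above it and 19 below.

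Few members were far from a ratio of 1. On the FPKM + 1 scale, 3 members were at least 25% higher with anti-CD40 (Trim17, Trim35 and Trim8), against 18.3% of all counted genes, and 1 was at least 20% lower (Trim5), against 8.26%. Both limits are the same distance on the log2 scale, and they serve for all lists below. At 1.5-fold, Trim17 was the 1 member higher, beside 2.68% of all counted genes, and 0 members were lower, beside 2.15%. At 2-fold the count was 0 in both directions, where 0.25% of all counted genes were higher and 0.313% lower. The counting interval of the FPKM ratio lay wholly above 1 for 5 members, against 28.9% of all genes with an interval, and wholly below 1 for 2 members, against 12.6%. These counts were at or under the shares of the whole table, apart from the single gene at 1.5-fold. Set against the median ratio of the genes at 1 FPKM in both libraries, 1.11, in place of 1, the interval lay wholly above it for 3 members, beside 14.3% of all genes, and wholly below it for 10 members, beside 20.8%. With the median log2 ratio of all counted genes set to 0, 5 members were at least 20% lower, beside 13.9% of all counted genes, and 2 were at least 25% higher, beside 7.49%.

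**Figure D1:**
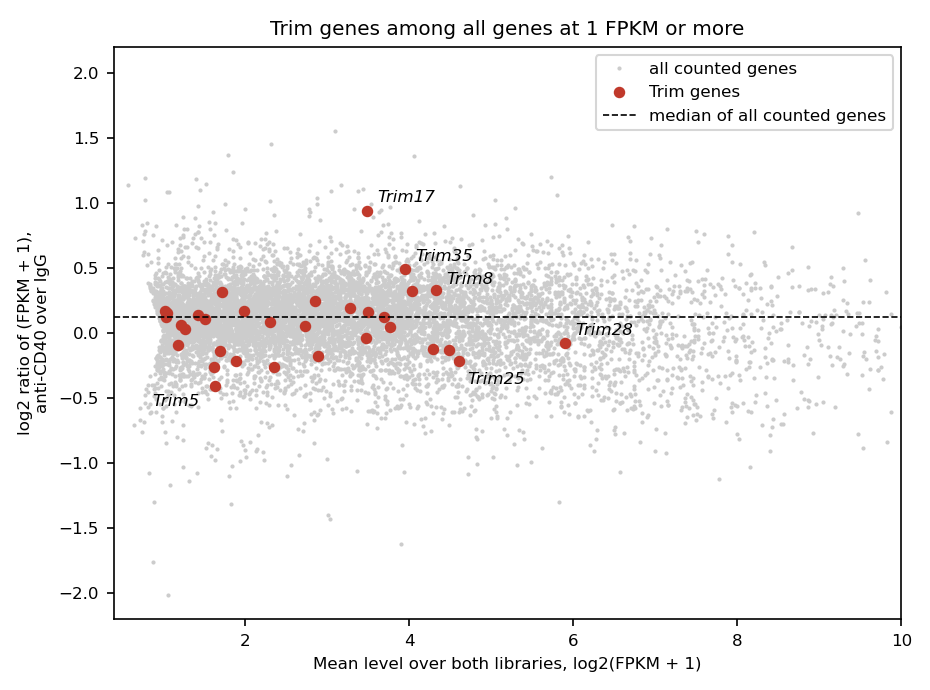
Each grey point is a gene at 1 FPKM or more in at least 1 library, with its mean level on the x axis (log2 of FPKM + 1) and its log2 ratio of anti-CD40 over IgG on the y axis; red points are the 32 Trim genes and the dashed line is the median of all genes, 0.12. The axes leave out 88 of the 9591 genes, and among the red points Trim17 at 0.94 stands highest and Trim5 at -0.40 lowest.

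The levels of the members spanned a wide range, and a few genes made up much of the family's signal. Summed over all 68 genes, the family had 299 FPKM with anti-CD40, against 285 with IgG, a ratio of 1.05. The 6 most abundant genes of each library held 52.1% of that sum with anti-CD40 and 55.5% with IgG. Trim28 was the most abundant in both libraries, followed by Trim25, then by Trim8, Trim27 and Trim47 with anti-CD40 and by Trim27, Trim47 and Trim8 with IgG. The median level of the counted members was 4.92 FPKM with anti-CD40, against 5.05 with IgG, where that of all counted genes was 7.41 and 6.69. Taken separately, the median number of fragments of the counted members was about 132.5 with anti-CD40 and 146 with IgG.

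**Figure D2:**
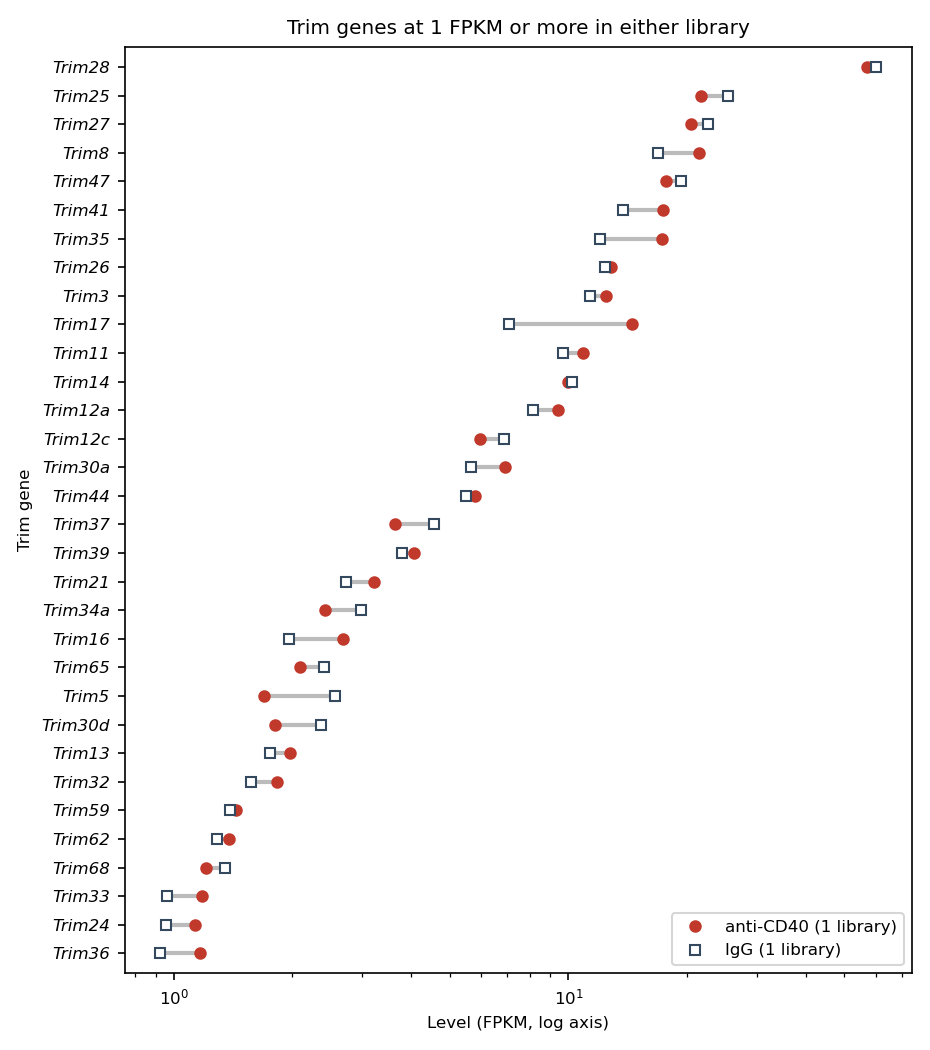
Levels of the 32 Trim genes at 1 FPKM or more in at least 1 library, in FPKM on a log axis, with red circles for the anti-CD40 library and open squares for the IgG library, 1 library each. Trim28 stands at 57.0 and 60.2 FPKM, and the widest gap between a pair of symbols is that of Trim17, at 14.5 and 7.06.

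The members with the best known antiviral roles were considered first. A list of 15 Trim genes, called interferon-inducible here, holds those described as targets of interferon in mouse myeloid cells. Of these, 10 were counted, 6 of them lower and 4 higher with anti-CD40, beside 32.2% and 67.8% of all counted genes. Their median log2 ratio was -0.11, beside 0.12 for all counted genes. Against that median of all genes, 3 of the 10 lay above and 7 below. Past the limits of 25% higher and 20% lower, 0 were higher and 1 (Trim5) was lower, beside 18.3% and 8.26% of all counted genes. The list's median stayed below that of all counted genes under each scaling, pseudocount and filter tried on counted genes, but its own sign was not fixed, at 0.0054 over the 6 members that reach 5 FPKM.

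Trim5, the mouse relative of the primate gene whose product restricts retroviral capsids, was the lowest member of the family. It had 1.69 FPKM with anti-CD40, against 2.56 with IgG, a ratio of 0.660 with an interval from 0.497 to 0.875. Trim25, the ligase that attaches ubiquitin chains to the RNA sensor RIG-I, had 21.6 FPKM with anti-CD40, against 25.3 with IgG. Its ratio of 0.854 had an interval from 0.808 to 0.902, the narrowest of the family since it rested on about 2472 and 2621 fragments. These 2 were the members whose interval lay wholly below 1, and with the longest annotated transcript 7 members did (also Trim12c, Trim27, Trim28, Trim30d and Trim37).

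Trim30d had 1.80 FPKM with anti-CD40, against 2.36 with IgG, a ratio of 0.766 with an interval from 0.556 to 1.08. Trim34a had 2.42 and 2.98 FPKM in the same order, a ratio of 0.812 (interval 0.633 to 1.04). Trim12c had 5.98 FPKM with anti-CD40, against 6.88 with IgG, a ratio of 0.869 (interval 0.753 to 1.002). All 3 intervals reach 1. With the longest annotated transcript in place of the median one, those of Trim30d (0.598 to 0.983) and Trim12c (0.763 to 0.990) lay below 1. The relatives Trim12a and Trim30a were on the other side of 1. Trim12a had 9.42 FPKM with anti-CD40, against 8.11 with IgG, and Trim30a, which in mouse macrophages promotes degradation of the TAK1 adaptors TAB2 and TAB3, had 6.89 and 5.65. The ratio of Trim30a was 1.22, with an interval from 0.859 to 1.77, and the interval of Trim12a ran from 0.968 to 1.39. With the longest annotated transcript, both lay wholly above 1, at 1.07 to 1.39 for Trim30a and 1.04 to 1.30 for Trim12a.

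The list held 3 more counted genes. Trim21, the cytosolic receptor for antibody-coated particles, had 3.21 FPKM with anti-CD40, against 2.74 with IgG. Trim26 had 12.8 and 12.4 FPKM with anti-CD40 and IgG, and Trim14, a partner of the mitochondrial adaptor MAVS that has no RING finger, had 9.94 and 10.2. Of stretches of 100 bases in the transcripts of Trim14, 29.9% also occur in another gene (27.7% in Nans). Its value is uncertain where the counting could split reads between them. The other 5 genes of the list were under 1 FPKM in both libraries: Trim56, known for a role in DNA sensing, had 0.387 FPKM with anti-CD40, against 0.357 with IgG, Trim34b, Trim30b and Trim30c had at most 0.19, and Trim38 was listed at 0 in both.

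Most of the list is encoded in a single array. In all, 10 of the 68 members lie within 1 Mb of each other on chromosome 7, from 104218795 to 104507853 (GRCm38): Trim6, Trim34a, Trim5, Trim12a, Trim34b, Trim12c, Trim30b, Trim30c, Trim30a and Trim30d. Of these, 6 were counted, 4 lower and 2 higher with anti-CD40, beside 32.2% and 67.8% of all counted genes. Their summed level was 28.6 FPKM with anti-CD40, against 29.2 with IgG, a ratio of 0.980. Some genes of the array share stretches of sequence with another gene, and the value of a single one is uncertain where the counting could split reads between them. Of stretches of 100 bases in the annotated transcripts, 39.0% of those of Trim34a and 11.7% of those of Trim5 also occur in another gene, against 8.05% for Trim12c, 4.57% for Trim30d, 4.41% for Trim30a and 3.29% for Trim12a.

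Near the starts of some of these genes, but not all, lies the core of the interferon-stimulated response element, to which the STAT and IRF factors activated by interferon bind. The core was searched as GAAA, any 2 bases and GAAA again, and for the other strand as TTTC, any 2 bases and TTTC, where neighbouring matches may overlap, in RefSeq windows of GRCm38.p6 from 250 bases before to 50 after a start. A window was given for 53 of the 68 Trim genes. Of these, 9 (16.98%) held a match, against 3.99% of 27024 genes of the table. Within the interferon-inducible list the share was 57.1% of 14 genes, and among the other Trim genes it was 2.56% of 39, the 1 match being Trim2. Stretches around the match are shown for the 4 members of the array with a match before the start, and for Trim26 outside the array, because they are the part of the windows that the search turned on. They are written 5′ to 3′ on the strand of the gene, with the match in capitals, and lie at chr7:104288121-104288180 (minus strand), chr7:104353350-104353403 (minus), chr7:104465195-104465254 (minus), chr7:104507856-104507915 (minus) and chr17:36836961-36837020 (plus).
Trim5: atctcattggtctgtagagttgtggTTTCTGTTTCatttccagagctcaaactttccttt
Trim12c: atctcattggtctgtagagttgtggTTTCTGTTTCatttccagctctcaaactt
Trim30a: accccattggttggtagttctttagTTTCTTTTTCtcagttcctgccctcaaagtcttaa
Trim30d: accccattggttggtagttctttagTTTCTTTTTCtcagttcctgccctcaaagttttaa
Trim26: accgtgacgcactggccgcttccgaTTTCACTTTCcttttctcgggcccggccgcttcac

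The stretches printed for Trim30a and Trim30d are the same at 59 of 60 bases, and those of Trim5 and Trim12c at 52 of 54, whereas Trim5 and Trim30a share 32 of 60 positions when set side by side without gaps. Trim26, and Trim21 below, each have a second, overlapping match 6 bases further on, and the capitals mark the first match only. Trim30a also has a match in the window of another start. In 3 more counted members, Trim12a, Trim21 and Trim34a, the match starts within 20 bases after the start, so that a stretch of 30 bases is given for each, at chr7:104315466-104315495 (minus strand), chr7:102565450-102565479 (minus) and chr7:104244457-104244486 (plus).
Trim12a: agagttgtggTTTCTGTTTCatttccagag
Trim21: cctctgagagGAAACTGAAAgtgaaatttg
Trim34a: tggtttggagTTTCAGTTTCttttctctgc

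Genes with the same core lay on both sides of 1. The 8 counted members with a match had a median log2 ratio of -0.06 and a range from -0.40 to 0.25, with 4 higher and 4 lower. The 14 counted members with a window and no match had a median of 0.05 and a range from -0.26 to 0.32. Only these 22 counted members had a window. Those without one included Trim17, Trim35, Trim8 and Trim16, at 0.94, 0.49, 0.33 and 0.31, and the lower Trim14 and Trim65, at -0.04 and -0.14. Trim30a and Trim30d, whose printed stretches differ at a single position, had log2 ratios of 0.25 and -0.26. Trim25 had no match in its window, which says only that these letters are not in that stretch.

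**Figure D3:**
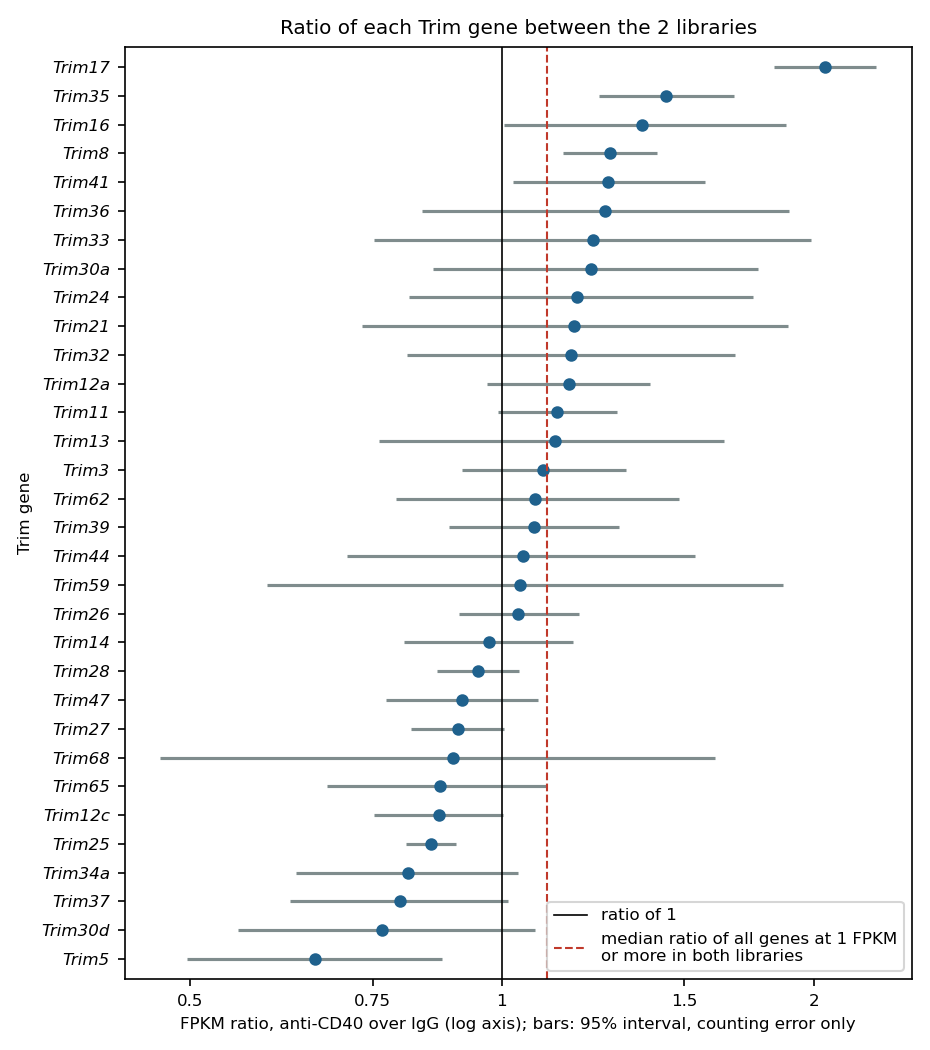
FPKM ratio of anti-CD40 over IgG for the 32 counted Trim genes on a log axis, with bars for the 95% interval from counting error alone; the black line marks a ratio of 1 and the dashed line 1.11, the median ratio over the genes that reach 1 FPKM in both. The bar lies wholly above 1 for Trim17, Trim35, Trim16, Trim8 and Trim41, and wholly below 1 for Trim25 and Trim5.

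Members that act on the kinase TAK1, its adaptors or NF-kB, the pathway downstream of CD40, were taken next. Of 7 such Trim genes, 5 were counted, 4 higher and 1 lower with anti-CD40, beside 67.8% and 32.2% of all counted genes. Their median log2 ratio of 0.11 was close to the 0.12 of all counted genes. Trim8, which is described to attach ubiquitin chains to TAK1 in human cells and to bind the cytokine-signalling inhibitor SOCS1, had 21.4 FPKM with anti-CD40, against 16.8 with IgG. Its ratio of 1.27 had an interval from 1.15 to 1.41, so that it stood above 1 and above the 1.11 of the median gene. Its place at 25% higher was lost with a pseudocount of 5 FPKM (log2 ratio 0.27), with the median of all genes set to 0 (0.21) and after upper-quartile scaling (0.24). Trim27, an SPRY ligase found in the nucleus and on endosomes, had 20.4 FPKM with anti-CD40, against 22.5 with IgG, a ratio of 0.907 (interval 0.817 to 1.01). Trim39, which stabilises the apoptosis modulator MOAP1, had 4.06 and 3.78 FPKM with anti-CD40 and IgG, and Trim13, a ligase of the endoplasmic reticulum membrane, had 1.97 and 1.75. In the genome, introns included, Trim13 overlaps the antisense gene Dleu2, which had 3.22 FPKM with anti-CD40, against 2.55 with IgG. The strand setting is not given. Of stretches of 100 bases in the transcripts of Trim13, 1.03% also occur in another gene, all of them in Gm9359 and none in Dleu2. Whether reads of Dleu2 enter the value of Trim13 was not tested. Trim45 was below 1 FPKM, at 0.861 with anti-CD40 and 0.944 with IgG.

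A further list held the 10 Trim genes described to act on RIG-I, MDA5, MAVS, cGAS or STING. Of 8 counted, 4 were higher and 4 lower with anti-CD40, where 67.8% of all counted genes were higher and 32.2% lower. The median log2 ratio was 0.0054, beside 0.12 for all counted genes, with 3 of the 8 above that median of all genes and 5 below. None was past the limits of 25% higher or 20% lower. Trim41, which in human cells acts on the DNA sensor cGAS, had 17.4 FPKM with anti-CD40, against 13.7 with IgG, a ratio of 1.27 with an interval from 1.03 to 1.57, and was just short of 25% higher on the FPKM + 1 scale. Trim65, which ubiquitinates the RNA sensor MDA5, had 2.09 FPKM with anti-CD40, against 2.40 with IgG. Trim32, an NHL-repeat ligase also known from muscle disease, had 1.83 and 1.57 FPKM with anti-CD40 and IgG.

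The chromatin class as listed here, with a PHD finger and a bromodomain at the C-terminus, held 3 genes, and all were counted. Trim66 was listed with the members without a RING finger instead. It was below 1 FPKM, at 0.0134 with anti-CD40 and 0.0236 with IgG. Trim28, the corepressor KAP1 that KRAB zinc finger proteins recruit to silence retroelements, had 57.0 FPKM with anti-CD40, against 60.2 with IgG, a ratio of 0.948 (interval 0.865 to 1.04). Trim24, a coregulator of nuclear receptors, had 1.13 FPKM with anti-CD40, against 0.959 with IgG, and Trim33, which acts on SMAD4 in transforming growth factor signalling, had 1.18 and 0.963. None of the 3 was 25% higher or 20% lower.

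Trim17 had the largest difference of the family, and its value cannot be fully separated from that of a histone gene that shares part of its sequence. Trim17 is an SPRY ligase best known from mouse neurons, where it promotes apoptosis through degradation of MCL1. It had 14.5 FPKM with anti-CD40, against 7.06 with IgG, a ratio of 2.05 with an interval from 1.83 to 2.30, and stood at rank 35 of 9591 counted genes from the highest log2 ratio. The gene lies on chromosome 11 from 58954671 to 58973075, on the plus strand, in GRCm38. On the same strand, the histone gene H2aw (58954685 to 58955192) lies wholly within the first exon of 1 of the 2 GENCODE models of Trim17. That model shares all 508 bases of it, and the other model shares 0. Of stretches of 100 bases in the transcripts of Trim17, 16.3% also occur in H2aw. H2aw was listed at 0.0834 FPKM with anti-CD40, against 34.3 with IgG, the opposite direction.

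The pair was therefore also summed, as approximate fragments. With the RefSeq length of H2aw, the pair had about 995 fragments with anti-CD40 (994 of them on Trim17) and 763 with IgG (439 on Trim17 and 324 on H2aw), a ratio of 1.18 after adjustment for depth. With the GENCODE model of H2aw, 2146 bases long, the pair had about 998 fragments with anti-CD40, against 1808 with IgG, a ratio of 0.4998. Which of these annotations the authors' counting used is not given, so the direction of the pair as a whole is not fixed by these values. Trim11, the next gene downstream, also an SPRY ligase, had 10.9 FPKM with anti-CD40, against 9.66 with IgG, a ratio of 1.13 (interval 0.992 to 1.29).

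**Figure D4:**
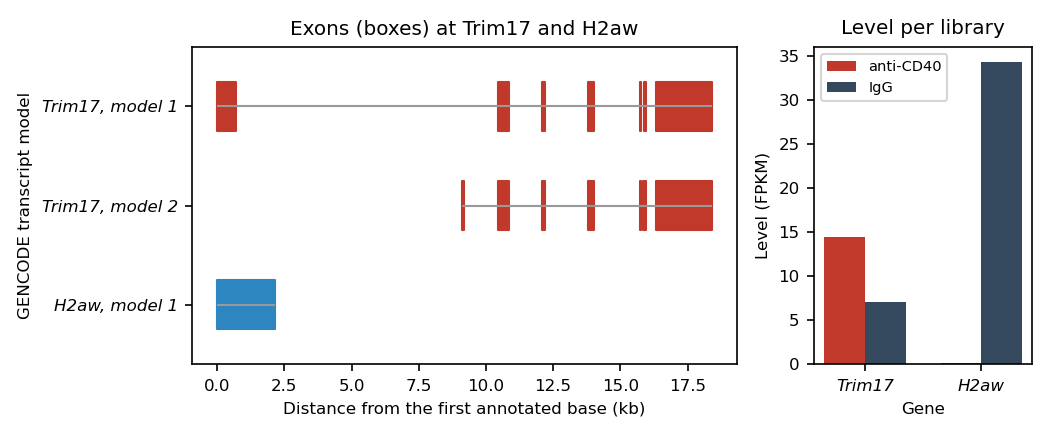
Left, exons of the 2 GENCODE models of Trim17 (red) and of the model of H2aw (blue), by distance in kb from the first annotated base; right, the level of both genes in FPKM, with the anti-CD40 library in red and the IgG library in dark blue, 1 library each. The H2aw model covers the first exon of 1 Trim17 model, and H2aw stands at 0.0834 and 34.3 FPKM where Trim17 stands at 14.5 and 7.06.

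Trim35, an SPRY ligase first described as a lineage gene of blood cells, was the next highest member by its ratio. It had 17.3 FPKM with anti-CD40, against 12.0 with IgG, a ratio of 1.44 with an interval from 1.24 to 1.68. The gene (chromosome 14, 66297025 to 66311424) overlaps 1700001G11Rik at its 5′ end over 105 bases, and that gene had 0.162 FPKM with anti-CD40, against 0.0534 with IgG. Trim16, which lacks a RING finger and is known from the clearance of damaged lysosomes in human cells, had 2.68 FPKM with anti-CD40, against 1.96 with IgG. Its ratio of 1.37 had an interval from 1.004 to 1.88, so that with about 106 and 70 fragments it barely left 1.

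Other SPRY members differed little. Trim47 had 17.7 FPKM with anti-CD40, against 19.3 with IgG, Trim62 had 1.38 and 1.29, and Trim68 had 1.21 and 1.35, in the same order. Over the SPRY class as listed here, 19 of 36 genes were counted, with a median log2 ratio of 0.05. Of these, 10 were higher and 9 lower with anti-CD40, beside 67.8% and 32.2% of all counted genes. The list leaves out the members without a RING finger, such as Trim14 and Trim16. It also leaves out the class of Trim36, which joins SPRY to a COS box and a fibronectin domain. The other classes held at most 3 counted genes each, and 4 of them, among these the ARF-domain class of Trim23, held 0. Trim37, the MATH-domain ligase mutated in mulibrey nanism, had 3.64 FPKM with anti-CD40, against 4.58 with IgG, a ratio of 0.796 (interval 0.625 to 1.01). Trim3, an NHL-repeat protein, had 12.5 and 11.4 FPKM with anti-CD40 and IgG, the membrane-anchored Trim59 had 1.44 and 1.39, the microtubule-binding Trim36 had 1.16 and 0.926, and Trim44, which has a ubiquitin-binding zinc finger in place of the RING, had 5.78 and 5.52.

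The 36 members under 1 FPKM in both libraries include most genes known from other tissues. Of these, 19 were listed at 0 in both libraries and 17 were above 0 in at least 1. At this depth 3 fragments on a transcript of 2 kb would give 0.0730 FPKM with anti-CD40, against 0.0807 with IgG. A lower level rests on fewer fragments than these where the transcript is no longer than 2 kb. On a longer one it can rest on more, as for Trim30b, with 0.0709 FPKM and about 4 fragments with anti-CD40. Values as low as 0.0109 FPKM (Trim72 with anti-CD40) were listed. An exact 0 can also be a failed estimate. The muscle ligases Trim54 and Trim55 were listed at 0 in both libraries, and Trim63 at 0 with anti-CD40 and 0.0329 with IgG. The erythroid members Trim10 and Trim58 were listed at 0 in both, as were the stem cell gene Trim71 and the neuronal genes Trim9 and Trim67. Trim46 and Trim2, also known from neurons, were above 0. Trim46 had 0.369 FPKM with anti-CD40, against 0.436 with IgG, and Trim2 had 0.0993 and 0.171. Trim7, which binds the glycogen primer glycogenin, was just under 1 FPKM, at 0.961 FPKM with anti-CD40, against 0.618 with IgG, and Trim23, which carries an ARF GTPase domain, had 0.764 and 0.627.

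TRIM proteins whose genes have other symbols were counted separately. Of 7 such genes, 3 were counted. Mefv, which encodes the inflammasome sensor pyrin (TRIM20), had 2.46 FPKM with anti-CD40, against 1.29 with IgG, a ratio of 1.90 with an interval from 1.40 to 2.58, and was the 1 of these past the limits in either direction. Pml (TRIM19), the scaffold of nuclear bodies, had 6.48 FPKM with anti-CD40, against 7.45 with IgG. The microtubule-binding Mid1 (TRIM18) had 3.33 and 3.06.

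Partners of the family were compared in the same way, by lists. Beside each list stand all counted genes, of which 18.3% were at least 25% higher and 8.26% at least 20% lower. Their median log2 ratio was 0.12. Of the sensors, adaptors and kinases on which TRIM proteins act, 10 were counted, with a median log2 ratio of -0.03; 1 was at least 25% higher and 0 were at least 20% lower. That gene was Mavs, the mitochondrial adaptor of RIG-I, with 5.53 FPKM with anti-CD40, against 3.60 with IgG, whereas Ddx58, the gene of RIG-I, had 3.85 and 4.47. Of TAK1 and its adaptors, 9 were counted, 2 higher and 1 lower past these limits, with a median of 0.12. Tab2 had 8.58 FPKM with anti-CD40, against 6.54 with IgG, Traf3 3.08 and 2.23, and Tab1 13.6 and 17.7.

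The partners of Trim28 and the TIF1 proteins in chromatin numbered 10 counted genes, of which 1 was at least 25% higher and 0 were at least 20% lower, with a median of 0.17. Cbx3, an HP1 protein that binds methylated histone H3, had 8.49 FPKM with anti-CD40, against 5.76 with IgG, and the histone methyltransferase gene Setdb1 had 5.94 and 4.62. Of the ubiquitin-activating and -conjugating enzymes, 11 were counted, with a median of 0.17, beside 0.12 for all counted genes. Past the limits, 4 were higher and 2 lower, beside 18.3% and 8.26% of all counted genes. Ube2g2, an E2 of the endoplasmic reticulum, had 18.4 FPKM with anti-CD40, against 10.4 with IgG, and Ube2n, which builds K63-linked chains, had 7.44 and 5.41. On the lower side, the E1 gene Uba1 had 53.1 FPKM with anti-CD40, against 71.6 with IgG, and Ube2v1, the partner of Ube2n, had 69.1 and 97.7. Among the 5 genes for ubiquitin and ISG15, 2 were higher and 1 lower past the limits, beside the same shares of all counted genes. Ubb had 420 FPKM with anti-CD40, against 311 with IgG, Isg15 20.0 and 15.6, and Rps27a, a fusion of ubiquitin with a ribosomal protein, 447 and 567.

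**Figure D5:**
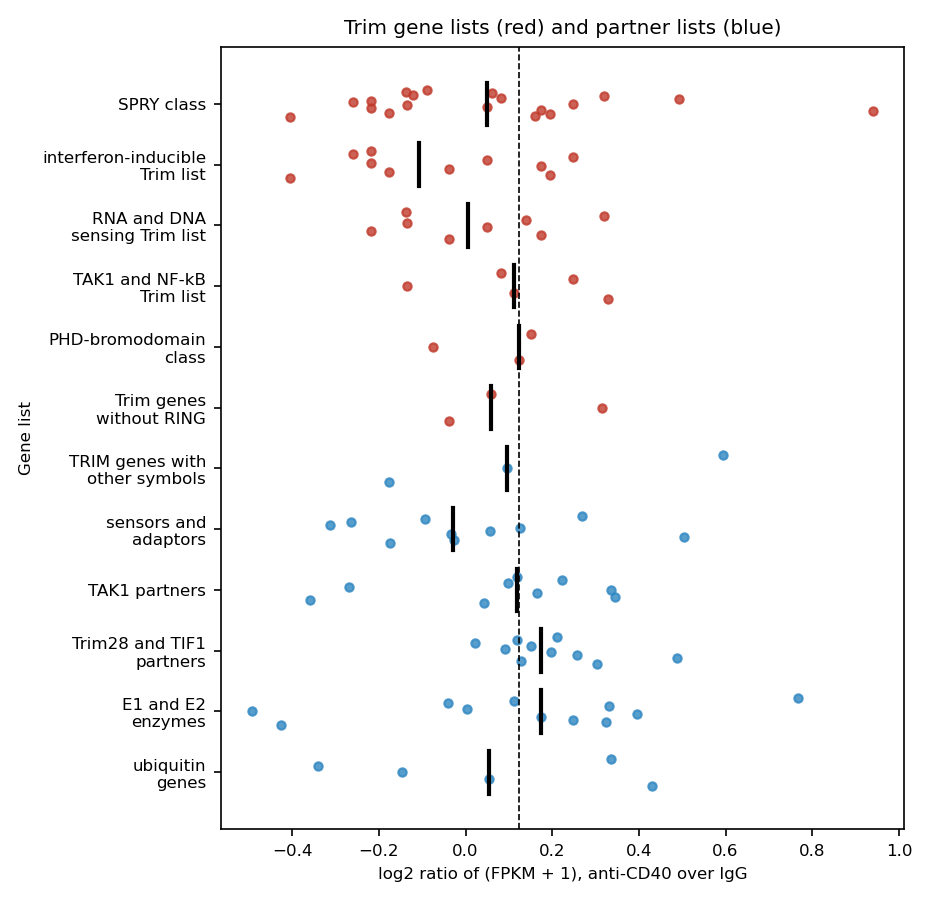
Log2 ratio of (FPKM + 1), anti-CD40 over IgG, of each counted gene in 6 lists of Trim genes (red) and 6 lists of relatives and partners (blue), with a black bar at the median of each list and a dashed line at 0.12, the median of all counted genes. A gene can stand in more than 1 list, and the interferon-inducible list has the lowest median, at -0.11.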

How the data were processed

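Marrow-derived macrophages were profiled by RNA sequencing, 1 library per group, from TRIzol RNA (1.3 ug) in a TruSeq preparation, as the labels' protocols say. HISAT2 2.1.0, StringTie and mm10 are listed, per the submitters' processing notes, and no source used here states the annotation, the strand setting or any filters. A single table, taken as FPKM, was deposited by the authors. It was read in that unit because StringTie is named and the column sums differ (529104 with anti-CD40, 547362 with IgG); its header names no unit. Columns were matched by name, and 0 columns were left unused.

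Coordinates and promoters are from RefSeq (GRCm38.p6) and transcript models from GENCODE M21, both of the build mm10. For genes of 1 exon and 1 transcript, a recurring product of FPKM and length, of which 0.5 times also recurred, was read as 1 fragment. The product and 0.5 times it recurred at 5 and 5 genes with anti-CD40, and at 4 and 3 with IgG. If the smaller value were 1 fragment, fragment numbers would be larger and intervals narrower, which was not tested. Since few genes share the product, fragment numbers are approximate. Fragments of a gene are its FPKM times median transcript length times that scale. No test was run. Python 3.11.15, pandas 2.3.3 and scipy 1.17.1 were used, and counts and intervals were tested on simulated data. Such data cannot check the fragment scale, the lengths assumed for genes or the spread between cultures.

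Members and lists were chosen with earlier results of these data known. Named were all members at 1 FPKM or more, with ratios for the 6 highest, the 6 lowest and those above 20 FPKM, and up to 3 genes either way past 25% higher or 20% lower per partner list; others were chosen after their values were seen. Alternatives were pseudocounts of 0.1 and 5 FPKM, 3 scalings, no filter or one at 5 FPKM, and the longest transcript; leaving out Trim17 was added after seeing the data.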

Additional observations from a re-analysis of the deposited data

How the results depend on the processing

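No paired analysis was possible because each group held 1 library, and no replicate could be left out. The sign of the log2 ratio held for 24 of the 32 counted members under all pseudocounts and scalings (13 higher, 11 lower) and changed for 8, Trim3, Trim13, Trim14, Trim26, Trim39, Trim44, Trim59 and Trim62. Setting the median of all genes to 0 gave a median of -0.051 over the members and 5 members at least 20% lower (13.9% of all genes), with 2 at least 25% higher (7.49%). The counts past 25% higher and 20% lower were 5 and 2 (25.5% and 10.1% of all) with a pseudocount of 0.1 FPKM, where 1 member (Trim17) also passed 2-fold higher. They were 2 and 0 (7.59% and 4.97%) with a pseudocount of 5 FPKM, 3 and 0 (20.9% and 9.97%) with a filter at 5 FPKM, 5 and 1 (23.5% and 6.73%) after scaling to equal column sums, and 2 and 3 (10.3% and 11.7%) after upper-quartile scaling. Where 2 were higher under a pseudocount or scaling, Trim8 was the gene lost. Without Trim17, 0 members were past 1.5-fold and 2 were at least 25% higher. With the longest transcript in place of the median one, 8 intervals lay above 1, then also those of Trim11, Trim12a and Trim30a, and 7 below. Fragment numbers, and so the width of every interval, rest on the length assumed for a gene and on the product read as 1 fragment. Low members rest on few fragments at this depth.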
